A study of Mus musculus with 9 samples.

Results

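The mouse mitochondrial genome encodes 37 genes, and all 37 were found among the 54532 genes listed by taking every gene whose symbol starts with mt-. They fall into 13 messenger RNAs, 2 ribosomal RNAs and 22 transfer RNAs, which are described here as separate classes. RNA from mouse liver was sequenced in 9 libraries, 3 in each of 3 groups. The groups were wild type mice given drinking water, Cth knockout mice given drinking water, and Cth knockout mice given 1% betaine in the water. Cth encodes cystathionine gamma-lyase, the enzyme that releases cysteine from cystathionine and can form hydrogen sulfide, and betaine is a methyl donor that turns homocysteine back into methionine. No wild type group with betaine was among these samples, so an effect of betaine could be read only in knockout liver. The labels give no strain, age, sex or batch and do not name the knockout allele. Nothing in them says that the libraries of a group came from different animals. The p-values therefore cover the scatter among these libraries alone, and that scatter may be technical in whole or in part. In wild type it is not technical alone, since sex-linked genes, given below, place replicate 3 in another animal than the rest of its group.

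Mitochondrial DNA is a small circle that is copied into long RNAs from both of its strands. These precursors are cut, mostly at the transfer RNAs that stand between the coding genes, into messenger, ribosomal and transfer RNAs. The messenger RNAs encode core subunits of respiratory complexes I, III and IV and of the ATP synthase, and the ribosomal and transfer RNAs serve their translation inside the organelle. Every protein that transcribes, cuts, modifies or translates these RNAs is encoded in the nucleus. Hepatocytes are rich in mitochondria, which there carry fatty acid oxidation, the first steps of the urea cycle and sulfide oxidation.

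The deposited values are FPKM, that is fragments scaled to the length of the transcript and to a library total. Reads were recovered from them with the exon length of each gene and came to between 15183237 and 17471488 per library. At this depth 3 reads equalled between 2.35 and 3.22 FPKM in a gene of 69 bases, the length of several transfer RNA genes, a limit that covers counting error only. The 3 wild type libraries held 254 ± 33.3 FPKM of Cth (SD, n = 3), against 0.544 ± 0.248 in the knockout and 0.470 ± 0.269 in the betaine group. In sex-linked genes wild type replicate 3 was unlike the remaining 8. It had 26.6 FPKM of Xist, where the remaining libraries had at most 0.0124, and it was the library listed at 0 for Ddx3y, Eif2s3y, Kdm5d and Uty. This is the pattern of a female, and the remaining libraries had that of males. Of 10 hepatocyte markers all were tested, and their summed level was 46818 to 66179 FPKM in wild type, 39760 to 51657 in the knockout and 31901 to 44117 with betaine. Summed Kupffer cell and macrophage markers (7 genes) were 88.2 to 118 FPKM in wild type, 62.2 to 74.3 in the knockout and 46.7 to 108 with betaine, and summed endothelial markers (7 genes) 36.5 to 65.8, 27.2 to 35.5 and 24.1 to 37.7. Lymphocyte markers (7 genes) were 2.21 to 3.97, 1.5 to 1.92 and 1.57 to 5.38 FPKM, and pancreas markers (5 genes, with Cpa1, Pnlip and Ins2 at 0 in all libraries) 5.54 to 6.42, 11.8 to 14.5 and 8.26 to 12.8. Sums of cholangiocyte, stellate cell, neutrophil, erythroid and adipocyte markers overlapped between all 3 groups. Muscle markers, from a tissue also rich in mitochondria, summed to at most 0.0424 FPKM in any library, with Myh6, Myh1 and Mb at 0 in all 9. The part of cell makeup in the results below was not tested, and in bulk tissue fewer mitochondria, fewer cells of a type and less RNA per cell cannot be told apart.

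Of the 13 mitochondrial messenger RNAs 8 were higher in Cth knockout liver than in wild type liver with the deposited scaling, 7 of them by a log2 fold change of 0.94 to 1.14 and mt-Co3 by 1.68. The other 5 did not pass the test. The 13 messenger RNAs together took 4.62%, 5.41% and 4.86% of all recovered reads in wild type, 8.28%, 9.89% and 9.21% in the knockout and 7.82%, 5.20% and 5.57% with betaine, where the values stand in the order of the replicate numbers, as they do throughout. The knockout libraries were all above the other 6, and betaine replicate 1 stood above the other betaine libraries and above all wild type libraries. All 37 genes together held 10.6% ± 0.902 of summed FPKM in wild type, 16.2% ± 1.13 in the knockout and 11.8% ± 2.27 with betaine (SD, n = 3 each).

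**Figure D1:**
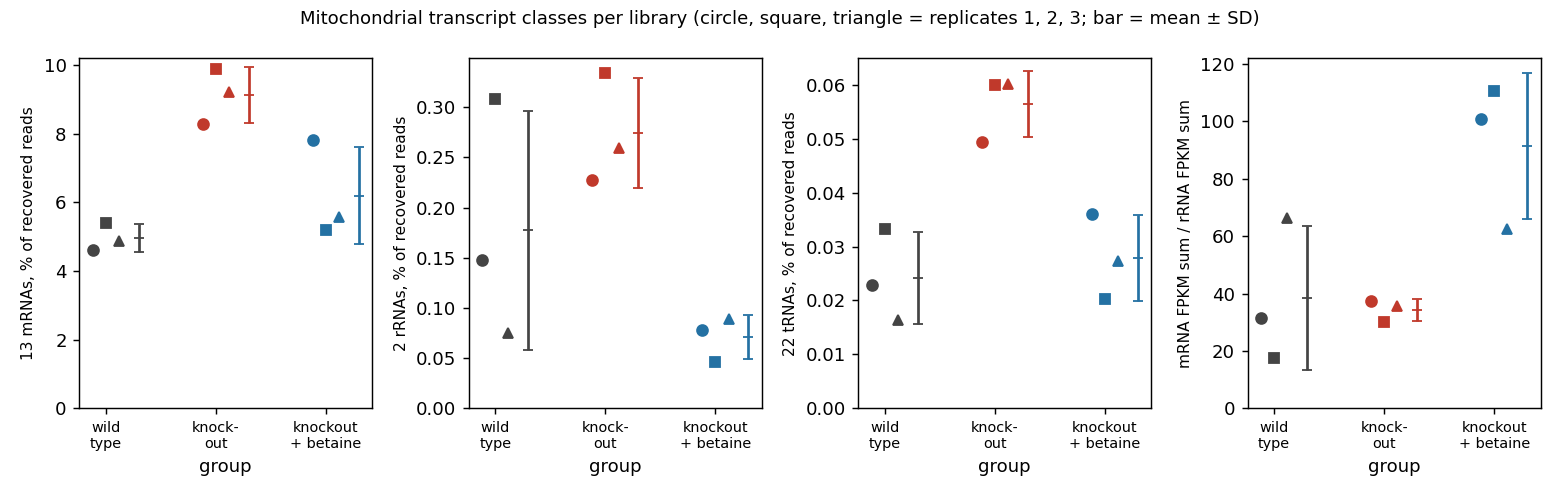
Each point is 1 library (circle, square and triangle for replicates 1, 2 and 3), and the bar beside each group is the mean ± SD of 3 libraries. From left to right the panels show the share of recovered reads in 13 messenger RNAs, 2 ribosomal RNAs and 22 transfer RNAs (%), and the ratio of summed messenger to summed ribosomal RNA FPKM, where wild type lies at 17.7 to 66.3, the knockout at 30.1 to 37.6 and the betaine group at 62.7 to 111.

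In the comparison of knockout with wild type, 8 of 13 messenger RNAs were higher and 0 lower at an adjusted p under 0.05 in limma. Over all 11852 genes tested, 25.6% were called in this comparison, 12.8% as higher and 12.7% as lower. In 9 of the 13 the 3 knockout libraries lay above all 3 wild type libraries, and in 0 below them, against 23.6% and 23.2% of all genes. The median log2 fold change of the 13 was 1.00, and that of all genes tested 0.015. The direction was up for 12 of 13 messenger RNAs with the deposited scaling, and it was up for 11 after quantile normalization. That setting left 2 of the 13 called, mt-Co1 and mt-Co3, lowered their median to 0.22, put mt-Nd1 at 0.14 (adjusted p = 0.679 in limma) and turned mt-Nd2 to -0.008. Over all genes it called 1431 of 11852 as higher, so 2 of 13 was near the share of all genes. Quantile normalization gives all libraries the same set of values, so differences among the highest genes can shrink by the method itself. With wild type replicate 3 left out 8 of 13 were higher again. Without knockout replicate 2 only mt-Nd1 passed, when the number of genes called over the whole table was 897 instead of 3029. The median of the 13 was 0.89 in that fit, and the direction was up for 12 of them.

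Complex I, which passes electrons from NADH to ubiquinone, has 7 subunits encoded in mitochondrial DNA. Among these, mt-Nd1 stood at 4467, 5187 and 4869 FPKM in wild type, at 9371, 9965 and 9971 in the knockout and at 7372, 4529 and 6247 with betaine. The knockout libraries were the 3 highest of the 9 and differed from one another by less than those of any other group. The log2 fold change of knockout over wild type was 1.01 ± 0.19 (SE of the fit over 9 libraries, adjusted p = 0.00902 in limma), and mt-Nd1 was called in all 9 fits that left out 1 library. mt-Nd2 had 5776, 6680 and 5354 FPKM in wild type, 10418, 12035 and 11566 in the knockout and 8076, 4643 and 5636 with betaine, a rise of 0.94 ± 0.22 in the knockout (adjusted p = 0.0154).

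Levels of mt-Nd4 were 3062, 3531 and 2687 FPKM in wild type, 6634, 7675 and 6133 in the knockout and 5752, 2850 and 3588 with betaine, and its rise in the knockout was 1.14 ± 0.25 (adjusted p = 0.0136). For mt-Nd5 the libraries gave 2089, 2307 and 2440 FPKM in wild type, 4058, 5074 and 4354 in the knockout and 3592, 2208 and 2470 with betaine, a rise of 0.98 ± 0.20 (adjusted p = 0.0112). In both genes betaine replicate 1 lay between the groups, and the other betaine libraries lay within or close to the wild type range. mt-Nd6 is the single messenger RNA of the 13 that is read from the other strand, the one called minus in the annotation, and its gene meets the end of mt-Nd5 tail to tail. It stood at 1491, 1814 and 2264 FPKM in wild type, 3485, 4129 and 3426 in the knockout and 3268, 1688 and 2003 with betaine. Its log2 fold change of 1.00 ± 0.26 (adjusted p = 0.0220) was as large as that of messenger RNAs from the plus strand, and it was called in 5 of 9 fits without 1 library. The labels name a kit without saying that it marks the strand, so reads of mt-Nd6 and antisense reads over it cannot be told apart.

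The other complex I members, mt-Nd3 and mt-Nd4l, were much lower and did not pass the test. mt-Nd3 had 93.4, 144 and 119 FPKM in wild type, 175, 212 and 144 in the knockout and 121, 79.6 and 102 with betaine, a log2 difference of 0.57 ± 0.22 (adjusted p = 0.0822). mt-Nd4l had 121, 255 and 91.4 FPKM in wild type, 102, 209 and 65.1 in the knockout and 194, 218 and 62.2 with betaine, and it was the one messenger RNA with a negative difference, -0.34 ± 0.60 (adjusted p = 0.705). In mt-Nd4l replicate 3 was the lowest and replicate 2 the highest library of each group.

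mt-Cytb encodes cytochrome b, the only mitochondrially encoded subunit of complex III. Its levels were 7961, 8653 and 8519 FPKM in wild type, 16319, 19564 and 14574 in the knockout and 13567, 7517 and 9104 with betaine. The lowest knockout library was above the highest wild type library by more than the whole wild type range, and the fold change was 1.00 ± 0.23 on the log2 scale (adjusted p = 0.0155).

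Complex IV, cytochrome c oxidase, takes 3 subunits from mitochondrial DNA. mt-Co1, its catalytic subunit, was the most abundant of all 37 transcripts, with 12294, 14485 and 11136 FPKM in wild type, 23018, 27605 and 25352 in the knockout and 20046, 12222 and 13941 with betaine. It was higher in the knockout by 1.01 ± 0.22 on the log2 scale (adjusted p = 0.0127). mt-Co2 had 104, 177 and 269 FPKM in wild type, 254, 449 and 306 in the knockout and 370, 125 and 214 with betaine. The groups overlapped, and the difference of 0.93 ± 0.45 did not pass (adjusted p = 0.150). mt-Co3 had 43.6, 81.1 and 104 FPKM in wild type, 286, 269 and 158 in the knockout and 258, 192 and 357 with betaine. It had the largest fold change among the 8 messenger RNAs called, 1.68 ± 0.36 (adjusted p = 0.0135), and all 6 knockout libraries, with or without betaine, lay above the wild type libraries.

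The ATP synthase, complex V, has a pair of mitochondrially encoded subunits. mt-Atp6 had 74.7, 170 and 181 FPKM in wild type, 269, 203 and 183 in the knockout and 377, 96.6 and 199 with betaine. Its groups did not overlap between knockout and wild type, but by a small gap, and the difference of 0.70 ± 0.49 was within the error of the fit (adjusted p = 0.310). mt-Atp8 was the lowest messenger RNA, at 2.80, 11.5 and 1.63 FPKM in wild type, 20.3, 8.64 and 4.94 in the knockout and 7.27, 3.44 and 7.02 with betaine, with a difference of 1.20 ± 0.69 (adjusted p = 0.227).

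**Figure D2:**
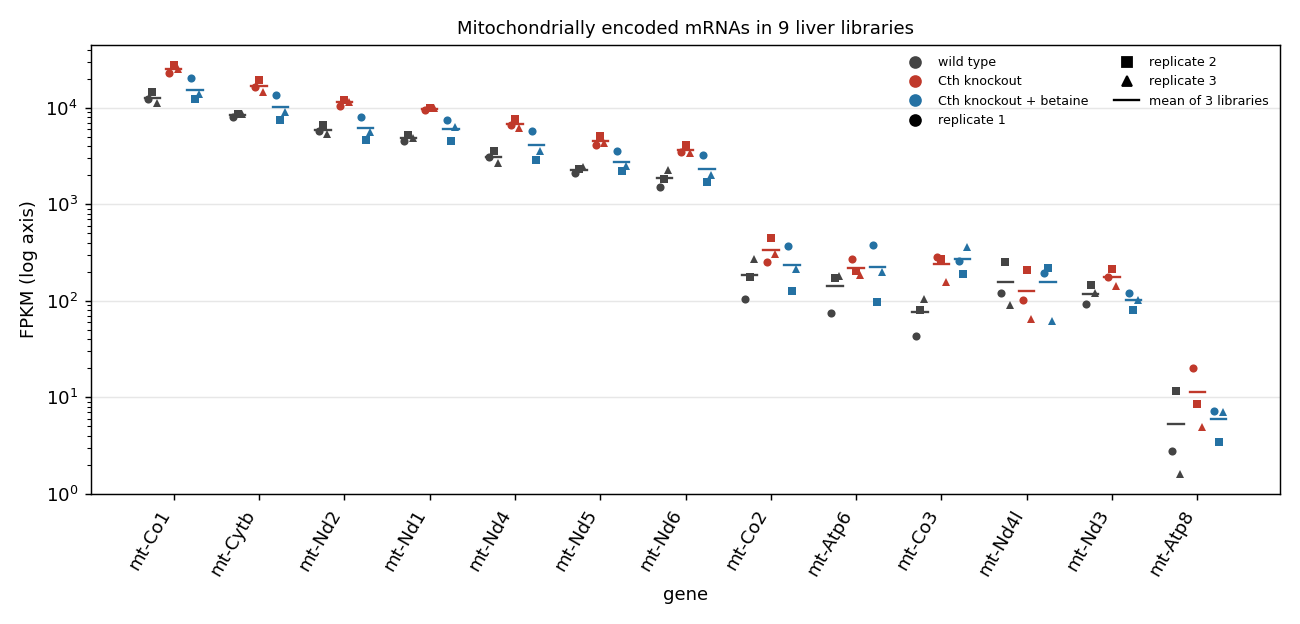
FPKM of the 13 mitochondrial messenger RNAs on a log axis, 1 point per library and a line at the mean of 3 libraries, in wild type (grey), Cth knockout (red) and Cth knockout with betaine (blue). The left 7 genes have means of 2619 to 17789 FPKM over the 9 libraries with the knockout libraries on top (under quantile normalization the difference of mt-Nd2 was -0.008), and the other 6 have means of 7.51 to 252.

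These levels fell into separate ranges, and so did the match of the genes to copies in the nuclear genome. Stretches of mitochondrial DNA that were pasted into chromosomes long ago are known as nuclear mitochondrial segments, and a young one is nearly identical to its source. The annotated transcripts of all nuclear genes (GENCODE M21, GRCm38) were searched for matches of at least 99% identity over 40 bases or more. Such matches were found for 8 of 13 messenger RNAs and for 0 transfer and 0 ribosomal RNAs, all in a row of gene models on the minus strand of chr1:24611535-24616197. Sequence outside annotated transcripts, such as that between these gene models, was not searched, so the counts do not cover it. For 5 messenger RNAs the copy covered at least 95% of the gene. mt-Co2 matched Gm28661 over 681 bases, mt-Atp6 matched Gm10925 over 678 bases and mt-Co3 matched Gm28437 over 783 bases, all at 100% identity. mt-Nd4l matched Gm10222 over 294 bases, also at 100%, and mt-Nd3 matched Gm28438 over 345 bases at 99.7%. Over these 2781 bases there was 1 mismatch in all.

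Partial matches were found for the other 3. Gm28439 held the first 876 bases of mt-Nd4 (63.6% of the gene, at 100% identity), Gm29216 the last 483 bases of mt-Co1 (31.3%, at 99.8%), and Gm10925 the last 43 bases of mt-Atp8 (21.1%). The copies also stand in the order of the mitochondrial genes and at their spacing. There were 140 bases between the parts matching mt-Co1 and mt-Co2 in both genomes, 233 between those of mt-Co2 and mt-Atp6, 2 between mt-Atp6 and mt-Co3 and 69 between mt-Co3 and mt-Nd3, while the gap from mt-Nd3 to mt-Nd4l was 73 bases in the mitochondrial genome and 74 in chromosome 1.

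Because a read can be assigned to one place only where a base differs, the few mismatches are shown here. Below are the first 48 bases of mt-Nd3 (chrM:9459-9506, plus strand) and of its copy (chr1:24613072-24613119, minus strand), read 5′ to 3′, then bases 1063 to 1111 of mt-Co1 (chrM:6390-6438, plus strand) and bases 10 to 58 of its copy (chr1:24616140-24616188, minus strand), from the GENCODE M21 transcripts on GRCm38. Capitals mark the base that differs, T3C in the first pair and A1066T in the second, counted from 1 at the 5′ end of the mitochondrial gene.
mt-Nd3: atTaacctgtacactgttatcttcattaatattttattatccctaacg
Gm28438: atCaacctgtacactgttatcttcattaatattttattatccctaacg
mt-Co1: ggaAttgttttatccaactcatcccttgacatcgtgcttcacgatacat
Gm29216: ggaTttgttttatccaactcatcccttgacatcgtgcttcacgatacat

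The 5 messenger RNAs with a full copy had means of 132 to 252 FPKM over the 9 libraries. The 7 others, mt-Atp8 aside, had means of 2619 to 17789 FPKM. How reads that fit both places were counted is not given in the sources used here, so the FPKM of the 5 and of their copies hold an unknown part of the reads that fit both. mt-Atp8 is a short gene that shares 43 bases with mt-Atp6, and these were the bases that the gene model Gm10925 also held. The rest of mt-Atp8 lies within the 233 bases between the parts matching mt-Co2 and mt-Atp6. That gap has the same length on chromosome 1, but its sequence there was not compared, since only annotated transcripts were searched. The shared stretch (chrM:7927-7969, plus strand) runs from the start codon of mt-Atp6 to the last 3 bases of mt-Atp8, both in capitals.
overlap of mt-Atp8 and mt-Atp6: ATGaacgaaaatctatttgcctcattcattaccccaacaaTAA

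**Figure D3:**
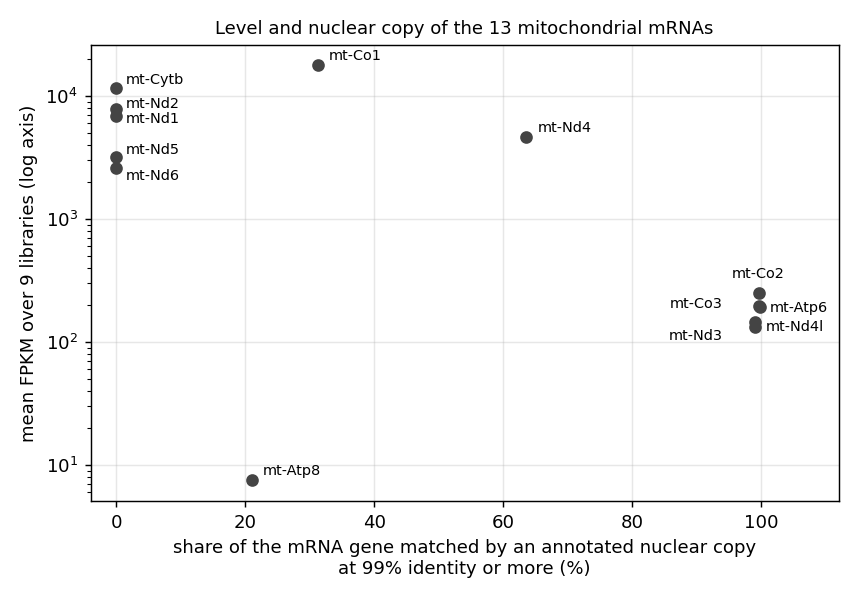
Mean FPKM over 9 libraries (log axis) of the 13 mitochondrial messenger RNAs against the share of each gene (%) matched at 99% identity or more by an annotated nuclear copy. The 5 genes with a share of about 99% to 100% lie at 132 to 252 FPKM, while mt-Nd4, with 63.6% matched, lies at 4657 FPKM and mt-Co1, with 31.3%, at 17789.

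Of the 5 messenger RNAs with a full annotated copy 1 (mt-Co3) was higher in the knockout than in wild type, and of the 8 without one 7 were higher, all but mt-Atp8. The median log2 fold changes were 0.70 and 1.00. The copies were themselves listed with reads. Gm28661, the copy of mt-Co2, had 63.3, 114 and 103 FPKM in wild type, 281, 550 and 314 in the knockout and 339, 94.6 and 114 with betaine, and was higher in the knockout by 2.0 ± 0.48 (adjusted p = 0.0184 in limma). The other 6 copies did not pass, with differences of 0.47 to 1.11 on the log2 scale. With each gene summed with its chromosome 1 copy, a setting chosen after seeing the data, 8 of 13 messenger RNAs were higher in the knockout.

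Among the abundant messenger RNAs the makeup of the pool differed little between libraries, as read from ratios within a library, which scaling by a library total does not change. mt-Co1 made up 29.3% to 33.6% of the summed FPKM of the 13 in every library, mt-Cytb 19.1% to 22.4%, mt-Nd1 11.4% to 14.2%, mt-Nd4 7.07% to 9.13%, mt-Nd5 5.30% to 6.42% and mt-Nd6 3.97% to 5.95%. For these 6 genes all 3 groups overlapped. The share of mt-Nd2 was 15.4%, 15.4% and 14.1% in wild type, 14.0%, 13.8% and 15.2% in the knockout and 12.8%, 12.8% and 12.8% with betaine, so that the 3 betaine libraries were the lowest. For mt-Co3 the share was 0.116%, 0.186% and 0.274% in wild type, 0.384%, 0.308% and 0.208% in the knockout and 0.410%, 0.527% and 0.812% with betaine, where the betaine libraries were the highest. The share of mt-Nd3 was 0.249%, 0.332% and 0.314% in wild type, above that in the knockout (0.236%, 0.242% and 0.189%) and with betaine (0.191%, 0.219% and 0.233%). That of mt-Nd4l was 0.321%, 0.587% and 0.240% in wild type, above the 0.138%, 0.239% and 0.0854% of the knockout. These shares are descriptions without a test.

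The ribosomal RNAs had a median log2 fold change of 0.95 between knockout and wild type, close to the 1.00 of the messenger RNAs, but varied more between wild type libraries, and neither passed the test. mt-Rnr2 encodes the RNA of the large mitochondrial ribosomal subunit and mt-Rnr1 that of the small one, and the labels state that RNA was captured on poly-T beads, which keep RNAs with a poly(A) tail. mt-Rnr2 had 600.1, 1211 and 284 FPKM in wild type, 1059, 1506 and 1051 in the knockout and 307, 153 and 324 with betaine. mt-Rnr1 had 597, 1251 and 290.3 FPKM in wild type, 923, 1394 and 1095 in the knockout and 317, 176 and 377 with betaine. The pair moved together, with 0.861 to 1.15 FPKM of mt-Rnr2 per FPKM of mt-Rnr1 in each library. Wild type replicate 2 was the highest and replicate 3 the lowest of its group in both, and the wild type group reached into the range of each of the other groups.

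In the comparison of knockout with wild type the differences of 1.01 ± 0.49 for mt-Rnr2 (adjusted p = 0.159) and 0.90 ± 0.49 for mt-Rnr1 (adjusted p = 0.200) did not pass in limma, and 0 of 2 had an unadjusted p under 0.05. Both were called as higher in the knockout once wild type replicate 2 was left out, and neither once wild type replicate 3 was. The summed messenger RNAs were 38.4 ± 25 times the summed ribosomal RNAs in wild type, 34.4 ± 3.83 times in the knockout and 91.4 ± 25.4 times with betaine (SD, n = 3, on the FPKM scale). The betaine values of 101, 111 and 62.7 were above the knockout values of 37.6, 30.1 and 35.5, but the lowest of them was below the 66.3 of wild type replicate 3.

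Transfer RNAs bring amino acids to the mitochondrial ribosome, and in the long precursors they mark the places of cutting. They took 0.0163% to 0.0333% of recovered reads in wild type, 0.0494% to 0.0601% in the knockout and 0.0203% to 0.0360% with betaine. Their genes are 59 to 75 bases long, shorter than the cDNA fragments that the labels say were selected, so that reads counted for a transfer RNA gene can come from the mature RNA or from precursors that run through it. No read was recovered for mt-Tf and mt-Td, and mt-Tk and mt-Tt had 1 read each, both in betaine replicate 1. These 4 were not tested, and the other 18 were.

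Levels differed widely among the 22. mt-Tp, the transfer RNA for proline, was the highest by far with a mean of 3131 FPKM over the 9 libraries. Next came mt-Tc (cysteine) with 631 FPKM, mt-Te (glutamate) with 606, mt-Tn (asparagine) with 337, mt-Tl2 (leucine) with 282 and mt-Ty (tyrosine) with 213. Of these 6, 5 are read from the minus strand, all but mt-Tl2, although 14 of the 22 genes lie on the plus strand. As for mt-Nd6, reads of these genes and antisense reads over them cannot be told apart. mt-Tp alone held 45% to 59.2% of the transfer RNA reads in the 6 libraries without betaine and 65.3%, 62.0% and 64.6% in the betaine libraries, above all others.

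Sequences of 3 transfer RNA genes are shown, those of the most abundant one (mt-Tp), of the one with the smallest adjusted p among those with reads in every library (mt-Th) and of one found almost only in knockout libraries (mt-Tv), from the GENCODE M21 transcripts on GRCm38, read 5′ to 3′ along the gene. mt-Tp lies at chrM:15356-15422 on the minus strand, mt-Th, for histidine, at chrM:11546-11612 on the plus strand, and mt-Tv, for valine, at chrM:1025-1093 on the plus strand between the ribosomal RNA genes. Capitals mark the anticodon triplet.
mt-Tp: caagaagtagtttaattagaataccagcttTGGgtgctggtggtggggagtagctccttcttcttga
mt-Th: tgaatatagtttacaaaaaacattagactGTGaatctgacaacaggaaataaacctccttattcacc
mt-Tv: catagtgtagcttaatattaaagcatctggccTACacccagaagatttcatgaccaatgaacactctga

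Of the 18 transfer RNAs tested, mt-Tv and mt-Ts1 met the filter of 0.5 FPKM only through the knockout group, with means of 0.158 and 0.267 FPKM over the other 6 libraries, so that they had to differ. Of the remaining 16, 6 were higher in the knockout than in wild type and 0 lower, against the 12.8% of all genes called as higher. For 10 of these 16 the knockout libraries lay above all wild type libraries, against 23.6% of all genes. Their median log2 fold change was 1.48 and all 16 differences were positive. Over all 18 the median was also 1.48. It was 1.09 to 1.35 under the other scalings and 0.80 once the trend on gene length was removed, which left 2 of the 18 called. Over all genes the fit without the length trend called 1091 of 11842 as higher, so 2 of 18 was near the share of all genes. mt-Tp was recovered as 2028, 2310 and 1537 reads in wild type, 4154, 4586 and 5523 in the knockout and 3998, 2055 and 2791 with betaine. Its rise in FPKM was 1.49 ± 0.30 on the log2 scale (adjusted p = 0.00998 in limma), and it was called in all 9 fits without 1 library. mt-Th had 22, 42 and 47 reads in wild type, 64, 85 and 84 in the knockout and 44, 37 and 42 with betaine, a rise of 1.32 ± 0.25 in FPKM (adjusted p = 0.00862). The wild type and betaine libraries shared a range, and the knockout libraries lay above both.

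mt-Ts2, one of the serine transfer RNAs, had 28, 49 and 25 reads in wild type, 60, 73 and 104 in the knockout and 45, 32 and 30 with betaine, a rise of 1.43 ± 0.31 in FPKM (adjusted p = 0.0132). It was called in 9 of 9 fits without 1 library, as were mt-Tp and mt-Th. The calls of mt-Tl2 (1.63 ± 0.44, adjusted p = 0.0277), mt-Tc (1.55 ± 0.48, adjusted p = 0.0423) and mt-Te (0.79 ± 0.25, adjusted p = 0.0478) were less stable and held in 4, 2 and 3 of those 9 fits. mt-Tc had 428, 711 and 230 reads in wild type, 908, 1245 and 1030 in the knockout and 440, 208 and 429 with betaine, and mt-Te 495, 691 and 582, then 696, 1088 and 883, then 612, 439 and 325.

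mt-Tv was found as 0, 1 and 0 reads in wild type, 4, 5 and 3 in the knockout and 0, 0 and 0 with betaine. Its adjusted p of 0.00570 in limma is given for completeness, since it was tested only because of its knockout libraries. Per sequenced read, with the reads of each group pooled, the ratio was 13.8. Its 95% counting interval of 2.05 to 592 leaves out the spread between libraries. Few reads stood behind mt-Ts1 and mt-Ta as well, which did not pass. mt-Ts1 had 0, 0 and 2 reads in wild type and 4, 0 and 3 in the knockout, and mt-Ta had 2, 13 and 4 and then 14, 12 and 2.

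Within its group wild type replicate 2 had the highest FPKM in 16 of the 18 transfer RNAs tested and in both ribosomal RNAs, and replicate 3 the lowest in 11 and in both. The median SD between wild type libraries was 0.91 log2 units for transfer RNAs and 1.05 for ribosomal RNAs, against 0.30 for messenger RNAs and 0.22 for all genes tested. In the knockout the same medians were 0.38, 0.30, 0.21 and 0.16. Without wild type replicate 2 the number of transfer RNAs called as higher in the knockout, mt-Tv included, was 13 of 18. It was 4 of 18 without wild type replicate 1, wild type replicate 3, knockout replicate 1 or knockout replicate 3, against 7 with all libraries. Among all genes tested, 1519 were called as higher with all libraries, and 960, 1184, 918 and 850 in those fits, in that order. The lower transfer RNA counts thus came with fewer calls among all genes. Leaving out wild type replicate 2 also lowered the calls among all genes, to 1334 higher, while the transfer RNA count rose.

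**Figure D4:**
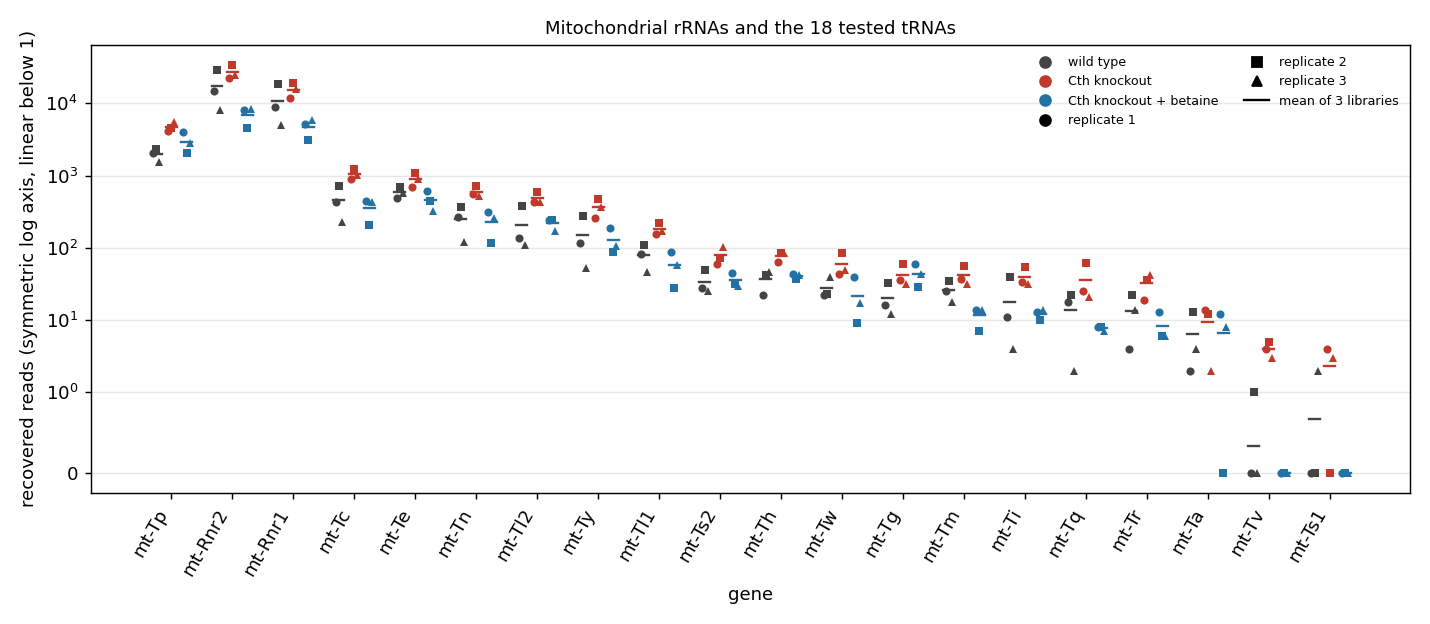
Reads recovered per library for the 2 ribosomal RNAs and the 18 transfer RNAs tested, ordered by mean FPKM, on a symmetric log axis that is linear below 1, with colours and symbols for groups and replicates and a line at the mean of 3 libraries. Knockout libraries (red) are the highest in most genes, the squares and triangles of wild type lie far apart in many, and mt-Tv has reads in all 3 knockout libraries and in 1 other.

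With betaine the mean levels of the messenger RNAs lay between those of knockout and wild type, except for mt-Nd3, mt-Nd4l, mt-Co3 and mt-Atp6, and none of the 13 passed the test against the knockout. Only 5 genes of 11852 passed in this comparison, 0.0422% of those tested, with 0.0169% called as higher and 0.0253% as lower. In limma 0 of 13 messenger RNAs, 0 of 2 ribosomal RNAs and 0 of the 16 transfer RNAs that met the filter outside their highest group were called. At an unadjusted p under 0.05 there were 8, 2 and 14, all lower with betaine, of 2672 such genes in the whole table, and limma without both the mean trend and the robust option called 0 genes. The betaine libraries lay below all knockout libraries in 8 of 13 messenger RNAs, 2 of 2 ribosomal RNAs and 14 of these 16 transfer RNAs, against 14.7% of all genes, and above them in 0 members, against 15.6%. Median log2 fold changes were -0.72, -2.14 and -1.79, and for all genes -0.002. The fall from knockout to betaine and the rise from wild type to knockout share the same 3 knockout libraries, so the one is no separate support for the other.

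By role, the differences of complex I messenger RNAs were -0.93 ± 0.22 for mt-Nd2 (adjusted p = 0.0886 in limma), -0.72 ± 0.19 for mt-Nd1 (adjusted p = 0.101), -0.80 ± 0.25 for mt-Nd4, -0.73 ± 0.20 for mt-Nd5, -0.72 ± 0.26 for mt-Nd6 and -0.81 ± 0.22 for mt-Nd3. mt-Cytb differed by -0.77 ± 0.23 and mt-Co1 by -0.75 ± 0.22 (adjusted p = 0.119 and 0.116). Against these, mt-Co3 stood at 0.18 ± 0.36 (adjusted p = 0.802) and mt-Nd4l at 0.31 ± 0.60, the 2 members with a positive difference. The 95% interval for mt-Co3 ran from -0.64 to 1.00. Quantile normalization shrank the median of the 13 to -0.12 and made 4 of them positive.

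Both ribosomal RNAs lay below the range of the knockout in all betaine libraries. mt-Rnr2 was lower with betaine by 2.26 ± 0.49 log2 units in the fit and mt-Rnr1 by 2.02 ± 0.49, with adjusted p = 0.0877 and 0.0931, and the highest betaine library in mt-Rnr2 had 324 FPKM where the lowest knockout library had 1051. Among transfer RNAs mt-Tm (methionine) had 37, 56 and 32 reads in the knockout and 14, 7 and 14 with betaine, and its difference of -2.07 ± 0.39 had the smallest adjusted p of the 16, 0.0774. mt-Te (-1.25 ± 0.25, adjusted p = 0.0837) and mt-Th (-1.17 ± 0.25, adjusted p = 0.0837) followed. mt-Tp, at -1.0 ± 0.30 (adjusted p = 0.119), was among the less changed, and mt-Tg (glycine) differed by -0.23 ± 0.45 with 36, 59 and 32 reads against 59, 29 and 43. For mt-Tv, tested only because of the knockout group, 12 reads in the knockout stood against 0 with betaine (adjusted p = 0.0391 in limma, and past the threshold in 3 of 9 fits without 1 library). With 3 reads over the group in place of a count of 0, mt-Tv came out 4.83-fold lower and mt-Ts1, with 7 reads against 0, 2.82-fold lower. These values carry no error for the knockout reads. A fall was also fixed in advance, since both genes met the filter only through the knockout group. The median of all 18 tested was -1.85 as fitted and -1.79 with mt-Tv and mt-Ts1 at these values.

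The betaine group was itself uneven. Betaine replicate 1 had the highest level of the group in 11 of 13 messenger RNAs and in 12 of 18 transfer RNAs, and betaine replicate 2 the lowest in 12 and 14, while mt-Tv and mt-Ts1 had 0 reads in all 3. Without betaine replicate 1, 8 of 13 messenger RNAs, 1 of 2 ribosomal RNAs and 8 of 18 transfer RNAs (mt-Tv included, as in the counts that follow) were called as lower than in the knockout, when 882 genes were called in all. Without wild type replicate 3, which is in neither of these groups and adds only to the estimated spread, 2 of 2 ribosomal RNAs and 8 of 18 transfer RNAs were called, and 0 messenger RNAs. That fit called 273 of 11823 genes in all, 144 of them as lower. With FPKM rescaled to TPM, or so that all other genes summed to the same total, 1 messenger RNA (mt-Nd2), both ribosomal RNAs and 6 transfer RNAs were called as lower, with a median over all genes of 0.30 and 0.24. Over the whole table these settings called 70 of 11929 and 52 of 11909 genes as lower, and 1597 and 825 as higher.

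**Figure D5:**
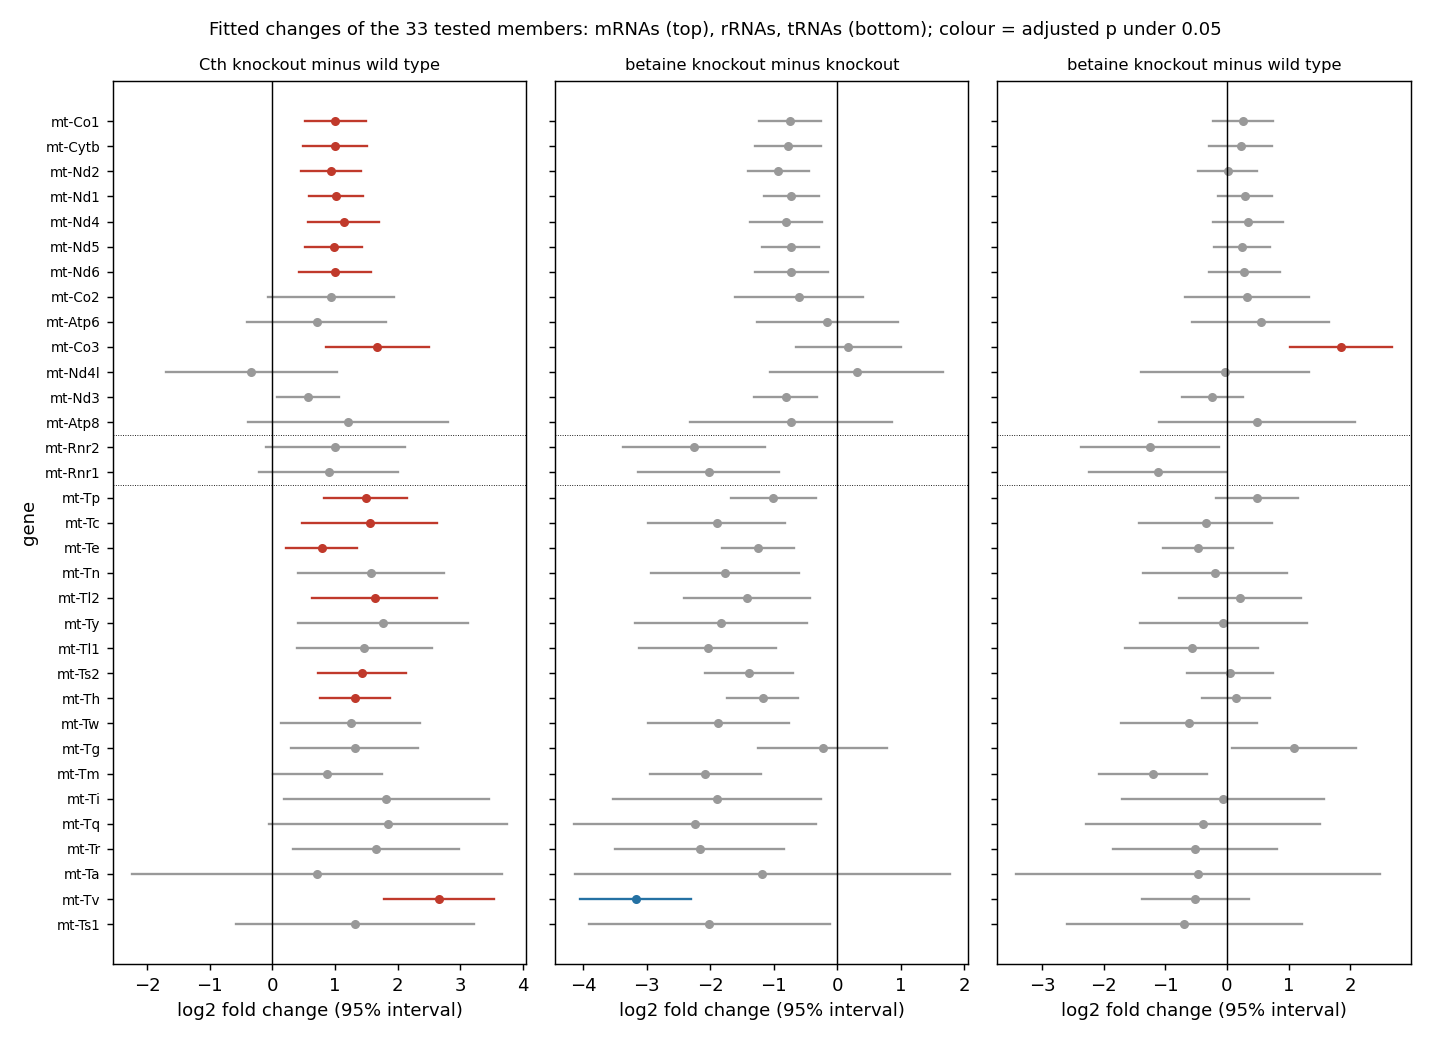
Fitted log2 fold changes of the 33 members tested with 95% intervals (limma, 9 libraries), for knockout minus wild type, betaine knockout minus knockout and betaine knockout minus wild type, with messenger, ribosomal and transfer RNAs from top to bottom. Red and blue mark members higher and lower at an adjusted p under 0.05: 15 in the left panel (mt-Nd2 turned its sign under quantile normalization), mt-Tv in the middle one (tested only because of its knockout libraries, as on the left) and mt-Co3 in the right one.

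Betaine-supplemented knockout liver differed from wild type liver in 1 of the 33 members tested at this threshold. The share of all genes called here was 11.7%, with 5.87% higher and 5.78% lower, and the groups did not overlap in 16.1% (higher) and 16.2% (lower) of genes. mt-Co3 was higher with a log2 fold change of 1.85 ± 0.36 (adjusted p = 0.0174 in limma), and its betaine libraries (258, 192 and 357 FPKM) were all above the wild type libraries (43.6, 81.1 and 104). The call held in 7 of 9 fits without 1 library and was lost without betaine replicate 1 or 3. This gene is matched at 100% by its copy Gm28437, and how reads that fit both were counted is not given. That copy had 34.8, 55.5 and 75.4 FPKM in wild type, 75.4, 33.7 and 49.8 with betaine, and a difference of -0.07 ± 0.33 (adjusted p = 0.910).

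The other messenger RNAs stood between -0.24 (mt-Nd3) and 0.55 (mt-Atp6) on the log2 scale, and the median of the 13 was 0.28. mt-Nd2 was at 0.01 ± 0.22 with a 95% interval of -0.47 to 0.49, which does not show that it was the same in both groups. mt-Co1 was at 0.26 ± 0.22, with an interval of -0.22 to 0.75, and mt-Cytb at 0.22 ± 0.23. Both ribosomal RNAs were lower in the fit without passing, mt-Rnr2 by -1.25 ± 0.49 (adjusted p = 0.126) and mt-Rnr1 by -1.12 ± 0.49 (adjusted p = 0.161), and both had an unadjusted p under 0.05. Leaving out wild type replicate 3, the lowest wild type library in both, made both of them pass. That fit called 757 of 11823 genes as lower. Of 18 transfer RNAs 0 were called and 2 had an unadjusted p under 0.05: mt-Tm at -1.20 ± 0.39 (adjusted p = 0.0763) with 25, 35 and 18 reads in wild type, and mt-Tg at 1.09 ± 0.45 (adjusted p = 0.140) with 16, 33 and 12. The median of the transfer RNAs was -0.37, and -0.27 without mt-Tv and mt-Ts1, which were at or under 3 reads in both groups.

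Nuclear genes that serve these RNAs were read from 8 lists, and limma called 0 of their genes between the betaine and knockout groups, with 0 to 6 genes of a list at an unadjusted p under 0.05. Only 0.0422% of all genes were called there, and 2672 of 11852 had an unadjusted p under 0.05, so the count of 0 says little about these lists. In the other comparisons the shares over all genes were 12.8% higher and 12.7% lower for knockout against wild type, and 5.87% higher and 5.78% lower for betaine against wild type. The proteins of mitochondrial transcription (Polrmt, Tfam and their partners) gave 0 of 8 in the knockout against wild type, and 3 at an unadjusted p under 0.05. The smallest p among them was that of Mterf4, which works with a methyltransferase on ribosomal RNA, at 1.86 ± 0.361 FPKM in wild type and 2.93 ± 0.333 in the knockout (SD, n = 3, log2 difference 0.55 ± 0.18, adjusted p = 0.0501). In the betaine group against wild type 3 of 8 were higher (37.5%, against 5.87% of all genes): Mterf2 (1.23 ± 0.26), the elongation factor Tefm (0.70 ± 0.16) and the ribosomal RNA methyltransferase Tfb1m (0.78 ± 0.21).

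RNA processing and turnover had 3 of 21 tested genes higher (14.3%, near the 12.8% of all genes) and 0 lower in the knockout. Hsd17b10, a part of the mitochondrial RNase P that cuts the ends of transfer RNAs, was at 71.8 ± 15.5 FPKM in wild type, 145 ± 15.4 in the knockout and 125 ± 24.3 with betaine (1.02 ± 0.20, adjusted p = 0.00949 for knockout over wild type in limma). Rexo2, an exonuclease that clears very short RNAs, was at 15.3 ± 2.82, 28.4 ± 1.54 and 26.8 ± 2.10 FPKM (0.89 ± 0.15, adjusted p = 0.00676), and Fastk, whose mitochondrial form acts on mt-Nd6 RNA, rose by 0.54 ± 0.13 (adjusted p = 0.0172). Rexo2 and Hsd17b10 were higher in the betaine group than in wild type too, by 0.80 ± 0.15 and 0.80 ± 0.20, with Ptcd3 as the other of 3 (0.60 ± 0.15), which is 14.3% of the list against 5.87% of all genes.

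For replication of mitochondrial DNA and its nucleotides 3 of 11 were higher (27.3%, against 12.8% of all genes) and 1 lower (9.09%, against 12.7%) in the knockout. Ssbp1, which binds single-stranded mitochondrial DNA, rose by 0.77 ± 0.15, the nuclease Endog by 0.60 ± 0.16, and Polg, the catalytic subunit of the mitochondrial DNA polymerase, fell from 3.31 ± 0.406 to 1.79 ± 0.120 FPKM (-0.73 ± 0.16, adjusted p = 0.0131). No measurement of DNA copy number was among these data. Of the genes listed for the charging of mitochondrial transfer RNAs 2 of 21 were higher, which is 9.52% and below the share of all genes. These were the amidotransferase subunit Gatb (0.50 ± 0.13) and the synthetase Tars2 (0.46 ± 0.12). Of transfer and ribosomal RNA modifiers 3 of 19 were higher (15.8%, near that share) and 1 lower (5.26%), among them Mrm3 (0.76 ± 0.19), which methylates ribosomal RNA, and Nsun3 (-0.68 ± 0.18), which methylates the methionine transfer RNA.

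Translation factors gave 1 of 12 higher (8.33%, against 12.8% of all genes), the elongation factor Tsfm (0.65 ± 0.15), and 2 lower (16.7%, against 12.7%), the elongation factor Gfm1 (-0.54 ± 0.15) and Taco1 (-0.97 ± 0.30, adjusted p = 0.0411), which is needed for translation of mt-Co1. Among nuclear regulators of mitochondrial biogenesis 0 of 10 were higher and 1 was lower (10%, near that share), Gabpa, a transcription factor of many respiratory genes, from 8.07 ± 0.497 to 4.41 ± 0.579 FPKM (-0.81 ± 0.15, adjusted p = 0.00843). Of 20 nuclear proteins often used as a sign of mitochondrial mass 6 were higher (30%, against 12.8% of all genes) and 1 lower (5%, against 12.7%) in the knockout, with Phb (0.86 ± 0.14), the protease Clpp (1.03 ± 0.20) and the chaperonin Hspe1 (0.66 ± 0.14) as those with the smallest p. The median of these 20 was 0.10, against 1.00 for the mitochondrial messenger RNAs. In the betaine group against wild type 4 of these 20 were higher (20%, against 5.87% of all genes), citrate synthase Cs (0.56 ± 0.10), Tomm40 (0.81 ± 0.17) and Hspe1 (0.69 ± 0.14) among them, and the modifiers Cdk5rap1 (0.90 ± 0.14) and Gtpbp3 (1.00 ± 0.21) were higher as well.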

How the data were processed

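Liver RNA of 9 libraries was captured on poly-T beads, per the labels' protocols. The authors deposited 1 table of FPKM per gene and library. The submitters' processing notes name the build mm10 and, without their roles, DESeq2 1.16.1, HISAT2 2.0.5 and featureCounts 1.5.0-p3. How reads with several matching places were counted is not given in the sources used here. The members and gene lists were chosen with earlier results of these data known.

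Values were taken as log2(FPKM + 0.5). A mean of 0.5 FPKM or more was required, which 11852 genes met, 33 of the 37 members among them. Fold changes on this scale understate those of low genes. The 9 libraries entered a single limma model (version 3.58.1, R 4.3.3, trend and robust), with two-sided tests of 3 contrasts and Benjamini-Hochberg adjustment over all genes tested at 0.05. The fit was tested on simulated data. Reads were recovered as FPKM times exon length (GENCODE M21) times a library denominator of 13513377 to 18528020 reads. Of values up to 20 reads, 98.3% to 98.6% came within 0.05 of a whole number. These denominators are not the recovered totals, so TPM, own totals and quantile normalization were tried as other scalings. The last of these gives each library the same set of values and so also changes ratios within a library. Sequence matches came from blastn 2.17.0. From each list up to 3 genes past the threshold with the smallest p, or values of up to 2 others, could be named. Python 3.11.15 was used for summaries. The labels give no batch, and none was used.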

Additional observations from a re-analysis of the deposited data

How the results depend on the processing

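Over all members tested and all settings, a log2 fold change stayed on its side of the threshold in 2033 cases, gained a call in 69 and lost one in 70. Of those called in either fit 1 turned its sign, mt-Nd2 in knockout against wild type, at -0.008 after quantile normalization, and signs of values called in neither were not counted. The causes were not tested. Leaving out 1 library at a time gave 1 to 9 messenger, 0 to 2 ribosomal and 4 to 13 transfer RNAs higher in the knockout, 0 to 8, 0 to 2 and 0 to 8 lower with betaine than in the knockout, and 0 to 1, 0 to 2 and 0 to 1 called between betaine and wild type. Over all genes these fits called 897 to 3243, 0 to 882 and 347 to 1439.

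For knockout against wild type, where 3029 genes, 8 messenger RNAs and 7 transfer RNAs were called, quantile normalization left 2 messenger RNAs, removal of the length trend 5 messenger and 2 transfer RNAs, and no filter on low values 1865 genes and 4 transfer RNAs. Over all genes quantile normalization called 1431 of 11852 as higher, removal of the length trend 1091 of 11842, and no filter 913 of 25420. All 37 members are at or under the median exon length of tested genes, 3798 bases. Of all calls 50.1% were higher with the deposited scaling, 13.6% after rescaling to TPM, 18.9% on the total of other genes and 37.3% on own totals, where the median of all genes was -0.33, -0.25 and -0.09 and that of the 13 messenger RNAs 0.58, 0.67 and 0.87. The log2 ratio of summed messenger RNA FPKM, 1.00 as deposited, was 0.58 with TPM, 0.67 on other genes, 0.87 on own totals and 0.29 after quantile normalization, when that of transfer RNAs was 0.83 instead of 1.35.

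For betaine against knockout, where 5 genes were called, the count was 8 and 10 with pseudocounts of 0.1 and 1, 1 with no filter, 1667 with TPM (95.8% higher, against 40% as deposited), 877 on other genes (94.1%), 70 on own totals (81.4%), 29 with the 2 groups alone and 0 without the mean trend and the robust option together. TPM and the total of other genes both gave 1 messenger, 2 ribosomal and 6 transfer RNAs as lower, and the 2 groups alone 1 ribosomal and 4 transfer RNAs. The call of mt-Tv was lost (0 transfer RNAs) with a pseudocount of 0.1, with no filter, without the length trend, and without the mean trend and the robust option together. The log2 ratio of summed messenger RNAs, -0.73 as deposited, was -0.39 with TPM and -0.36 after quantile normalization, when that of transfer RNAs was -0.70 instead of -1.18.

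For betaine against wild type, where 1381 genes were called, no filter gave 531 genes and the 2 groups alone 360. TPM and the total of other genes each added 1 transfer RNA, and own totals moved the share of higher calls from 50.4% to 69.6%. The log2 ratio of summed messenger RNAs was 0.27 as deposited and -0.068 after quantile normalization.

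The groups share replicate numbers in the labels. Same-numbered libraries of different groups had correlations of -0.227 to 0.098 in their deviations from the group means, so the numbers were not taken as pairs. A fit with the replicate number as a block called 2210 genes, 8 messenger RNAs and 5 transfer RNAs for knockout against wild type, 0 genes, and so 0 transfer RNAs, for betaine against knockout, and 671 genes for betaine against wild type. Counts were lowest among the transfer RNAs, where 6 of the 22 had under 20 reads over all 9 libraries or none. At the same depth mt-Tp had 28982 reads, and the cause of the low counts was not tested.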
